A study of Mus musculus with 2 samples.

Results

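Glucocorticoid-responsive genes were examined in single-nucleus RNA-Seq of the mouse gastrocnemius and plantaris (GP), which lie in the calf. The 10 genes were Fkbp5, its noncoding neighbour E230001N04Rik, Tsc22d3, Klf9, Klf15, Zbtb16, Sgk1, Errfi1, Arrdc2 and the receptor gene Nr3c1, out of 27998 genes in the files. They were matched by symbol, and all 10 were found. They were selected on the difference between these same libraries, so the ratios of cKO over Ctrl below are descriptions and carry no test. The floxed Net39 allele was made in B6C3F1 zygotes, and the founder mice were then mated to another strain. Net39 (symbol Plpp7) encodes a nuclear envelope protein of muscle. All mice were Net39 fl/fl, with loxP sites around the first exon of Net39, and all received tamoxifen. The cKO mice also carried a CreERT2 recombinase, which tamoxifen activates, driven by the human skeletal actin (HSA) promoter, and Ctrl mice lacked Cre. Muscles were taken at an age of 5 months, which was 3 months past the tamoxifen injections. The files held 1 library per group, each made from nuclei of 3 muscles pooled before isolation, although the sample titles name a single mouse. Nuclei could not be traced to animals. Genotype, library and animals therefore cannot be told apart, there were no replicates, and every interval given is a 95% interval for counting error only.

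Glucocorticoids such as corticosterone enter the cell and bind the receptor encoded by Nr3c1, which is held in the cytoplasm by a chaperone complex built on Hsp90. The bound receptor moves to the nucleus and binds DNA as a dimer at paired short sites, where it raises or lowers transcription of target genes. In muscle this pathway is known for raising protein breakdown and the use of amino acids as fuel, and for feedback through targets such as Fkbp5.

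The Ctrl library held 10410316 unique molecular identifiers (UMIs, each marking 1 captured RNA molecule) in 3863 barcodes, and the cKO library held 8446070 in 3994 barcodes. After filtering, 3526 Ctrl and 3595 cKO nuclei were used, with medians of 2039.5 and 1612 UMIs, and 5 barcodes occurred in both libraries. The share of Malat1 among UMIs was 25.5% in the Ctrl nuclei used and 30.7% in the cKO nuclei used. Plpp7 had 388 UMIs in Ctrl and 281 in cKO myonuclei. Reads from the 3′ end of that gene lie outside the deleted exon, so they do not check the labels. Levels are CPM, UMI counts of a gene after scaling each class of nuclei in a library to the same total. Myonuclei were nuclei with at least 3 UMIs of fibre genes and fewer than 3 of every list of markers from outside the fibre, and numbered 2979 in Ctrl and 3353 in cKO. A myonucleus was Myh4-, Myh1-, Myh2- or Myh7-dominant when that myosin held at least 60% of at least 3 myosin UMIs. The mixture of fibres differed, with 1897 Myh4-dominant nuclei in Ctrl and 1449 in cKO, and 19 Myh7-dominant nuclei in Ctrl and 277 in cKO.

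Fkbp5 lies on chromosome 17 at chr17:28399094-28517527 on the minus strand (GRCm38, GENCODE M21), and E230001N04Rik, a long intergenic noncoding RNA of 2679 bp, lies 5192 bp away at chr17:28522720-28525398 on the plus strand. The receptor's binding site, in its palindromic form, is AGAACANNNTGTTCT, made of the hexamers AGAACA and TGTTCT. Windows from 250 bases before to 50 bases after each RefSeq start (GRCm38.p6) were searched for these letters on both strands. The windows covered 8 of the 10 genes with 16 starts. Zbtb16 and Nr3c1 had no window in the table used. The full site occurred in 3 of 32851 windows (0.00913%), and 1 of these 3 was a window of Sgk1. It is shown because it is the single member window with a full site, with the full site and the hexamers in capitals.
Sgk1 chr10:21993640-21993939, plus strand: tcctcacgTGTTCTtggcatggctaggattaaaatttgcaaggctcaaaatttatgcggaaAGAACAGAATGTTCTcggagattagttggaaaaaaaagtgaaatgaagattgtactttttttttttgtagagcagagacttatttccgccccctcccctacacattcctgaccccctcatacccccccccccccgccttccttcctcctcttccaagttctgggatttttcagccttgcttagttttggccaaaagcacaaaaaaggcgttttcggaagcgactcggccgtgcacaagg

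The full site, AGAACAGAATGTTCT, spans chr10:21993701-21993715 and begins 189 bp before the start. The hexamers overlap the full site by construction and were common, occurring in 18.97% of all windows and in 4 of the 16 member windows, all of Sgk1 and Tsc22d3. The windows of Fkbp5 and E230001N04Rik are shown for comparison because these neighbours had the lowest ratios among the members. Neither window held the full site or a hexamer in these letters, and the RefSeq start of Fkbp5 lies inside the span that GENCODE gives the gene.
Fkbp5 chr17:28486100-28486399, minus strand: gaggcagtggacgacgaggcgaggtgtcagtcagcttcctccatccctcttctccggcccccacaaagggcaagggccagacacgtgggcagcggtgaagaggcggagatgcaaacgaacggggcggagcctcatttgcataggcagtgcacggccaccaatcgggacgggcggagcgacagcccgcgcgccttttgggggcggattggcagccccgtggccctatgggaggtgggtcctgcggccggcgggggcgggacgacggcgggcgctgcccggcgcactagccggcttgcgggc
E230001N04Rik chr17:28522406-28522705, plus strand: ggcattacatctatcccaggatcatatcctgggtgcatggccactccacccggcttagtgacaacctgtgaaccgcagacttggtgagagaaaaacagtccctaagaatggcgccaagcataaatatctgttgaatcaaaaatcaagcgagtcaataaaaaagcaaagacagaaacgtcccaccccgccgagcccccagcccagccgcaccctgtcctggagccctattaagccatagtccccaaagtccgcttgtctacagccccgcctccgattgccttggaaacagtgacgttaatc

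The Fkbp5 window had 70.67% G and C with 32 CpG sites and the E230001N04Rik window 52% with 12, against medians of 52.67% and 7 over all windows. A window of Tsc22d3 on the minus strand, at chrX:140600473-140600772, held a hexamer, and the Sgk1 window above held a hexamer apart from the full one. A match of letters is a description and not a binding site.

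In all myonuclei, the 10 genes were lower in cKO than in Ctrl, and they spanned a wide range, from a 56.7-fold lower level of E230001N04Rik to a log2 ratio of −0.12 for Errfi1. The interval of the ratio lay below 0 for 8 of the 10, and 5 were at least 2-fold lower. Over the 9200 genes with at least 50 UMIs over both libraries, 2.97% were at least 2-fold lower and 3.29% at least 2-fold higher. Lower by any fold were 58.6% of them, and the interval lay below 0 for 23.8% and above 0 for 15.2%. None of the members was at least 2-fold higher. The median log2 ratio was −0.93 over the members and −0.08 over the 9200 genes.

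**Figure D1:**
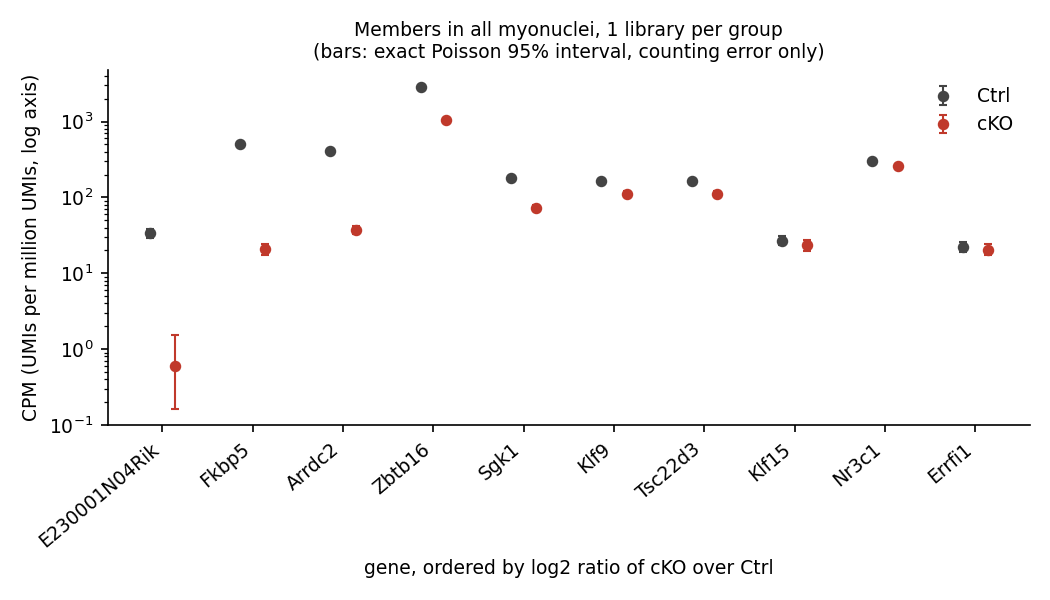
CPM of each of the 10 genes in all myonuclei of the Ctrl library (grey) and the cKO library (red) on a log axis, with exact Poisson 95% intervals. Fkbp5 went from 507 CPM in Ctrl to 20.6 in cKO, while Errfi1 and Klf15 had overlapping intervals.

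Fkbp5, the co-chaperone that joins the receptor's Hsp90 complex and lowers its affinity for hormone, was at 507 CPM in Ctrl myonuclei (interval 492 to 524, from 3863 UMIs) and at 20.6 CPM in cKO myonuclei (17.3 to 24.3, from 139 UMIs). The cKO level was 24.6-fold lower (20.8 to 29.4), the third-lowest ratio of the 9200 genes. At least 1 Fkbp5 UMI was found in 1747 of 2979 Ctrl myonuclei (58.6%, exact interval 56.9 to 60.4) and in 124 of 3353 cKO myonuclei (3.70%, 3.09 to 4.39). With every nucleus thinned to 500 UMIs, the shares were 22.1% and 0.925%. The lower level was thus seen as fewer nuclei with any Fkbp5 UMI, at equal depth as well.

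E230001N04Rik had 256 UMIs in Ctrl myonuclei (33.6 CPM) and 4 in cKO myonuclei (0.593 CPM). Its ratio was 56.7-fold lower (21.9 to 210), the lowest of the 9200 genes. It is overlapped on the other strand by Gm20109, which had 0 UMIs in the nuclei used of either library. In Ctrl, E230001N04Rik made up 6.22% of the UMIs of these neighbours in all myonuclei (exact interval 5.50 to 6.996). The share was 6.39% (5.57 to 7.28) in Myh4-dominant and 5.33% (2.79 to 9.13) in Myh1-dominant nuclei. In Ctrl FAP-marker nuclei it was 1.81% (0.969 to 3.08), from 13 UMIs of E230001N04Rik whose level there was no higher than that of free fibre RNA, as given with the FAP values.

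The genes around them differed less. Of 13 other genes within 500 kb with at least 50 UMIs, 0 were 2-fold apart between the libraries. Their log2 ratios ran from −0.48 (Uhrf1bp1) to 0.44 (Tead3), with a median of −0.15. Srpk1, the next of them beyond E230001N04Rik, had 29.2 CPM in Ctrl and 27.1 in cKO. Tead3, the nearest of them on the other side of Fkbp5, had 17.9 and 24.2 CPM.

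**Figure D2:**
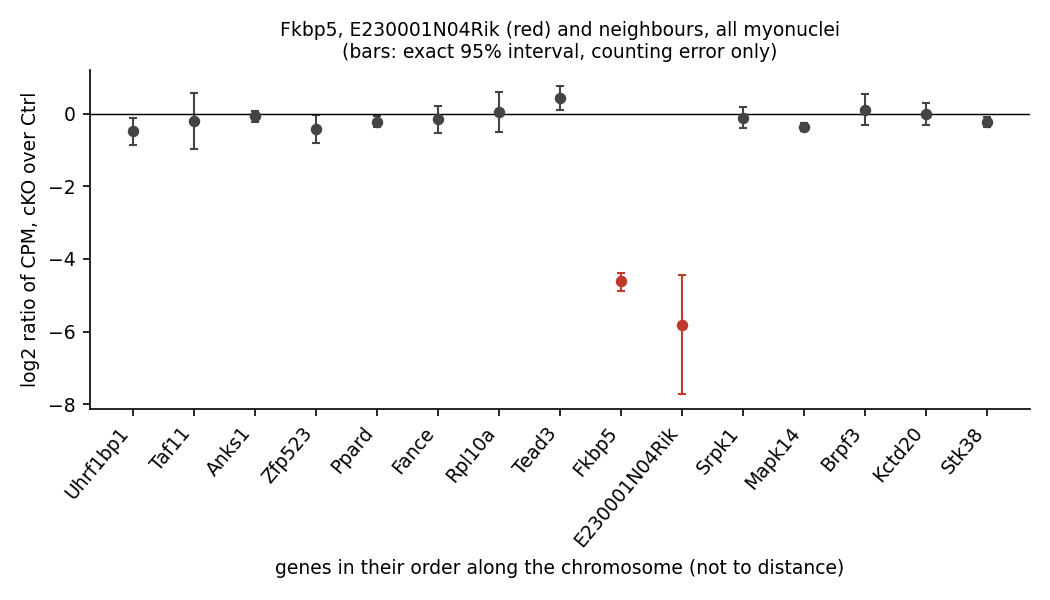
Log2 ratio of cKO over Ctrl CPM in all myonuclei for Fkbp5 and E230001N04Rik (red) and 13 neighbouring genes (grey), placed in chromosomal order and not to distance, with exact 95% intervals. The 13 neighbours lie between −0.48 and 0.44, far above the red pair.

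Arrdc2 (chr8:70835129-70839720, minus strand), an arrestin-domain protein of the alpha-arrestin family, was at 409 CPM in Ctrl myonuclei (395 to 424, from 3116 UMIs) and 37.4 CPM in cKO (32.9 to 42.3, from 252 UMIs). It was 10.95-fold lower (9.63 to 12.5), the seventh-lowest ratio of the 9200 genes. Zbtb16 (chr9:48654297-48836222, minus strand), a zinc-finger transcriptional repressor also called PLZF, was at 2879 CPM in Ctrl, from 21918 UMIs, and at 1058 CPM in cKO, from 7132 UMIs, 2.72-fold lower (2.65 to 2.80). Unlike Fkbp5, Zbtb16 was still found in 75.6% of cKO myonuclei, against 96.0% of Ctrl myonuclei (39.2% and 72.2% at 500 UMIs). Sgk1 (chr10:21882184-21999903, plus strand), a kinase that acts on ion channels and transporters, had 179 CPM in the Ctrl library (interval 170 to 189) and 73.0 CPM in the cKO library (interval 66.7 to 79.7), which is 2.46-fold lower (2.21 to 2.73). When both libraries were given the same mixture of fibre classes, the log2 ratio of Sgk1 was −0.90 in place of −1.30, and 4 members were at least 2-fold lower. The log2 ratio of Arrdc2 was then −3.12 in place of −3.45. The Sgk1 value over all myonuclei thus depended on the fibre mixture.

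The remaining members differed less. Klf9 (chr19:23141226-23168134, plus strand), a Krüppel-like transcription factor, was at 165 CPM in Ctrl and 113 in cKO, a log2 ratio of −0.55. Tsc22d3 (chrX:140539528-140600659, minus strand), which encodes the anti-inflammatory regulator GILZ, was at 163 and 112 CPM, a log2 ratio of −0.54. Nr3c1, the receptor itself, had 302 CPM in Ctrl (interval 290 to 314), and 261 CPM (interval 249 to 274) were found in cKO, so that its log2 ratio was −0.21 (−0.30 to −0.12). Without Malat1 and mitochondrial UMIs in the total the ratio of Nr3c1 was −0.11, and with an equal fibre mixture it was also −0.11. Klf15 (chr6:90462576-90475238, plus strand), a Krüppel-like factor known for amino acid breakdown in muscle, was at 26.9 CPM in Ctrl and 23.3 in cKO, with an interval of the log2 ratio from −0.52 to 0.10. Errfi1 (chr4:150853919-150868892, plus strand), an inhibitor of the EGF receptor, was at 22.2 and 20.5 CPM, with an interval from −0.45 to 0.22. It is overlapped on the other strand by 1700045H11Rik, which had 3 UMIs in the Ctrl and 0 in the cKO nuclei used. A difference of Klf15 or Errfi1 over all myonuclei was not detectable at this depth.

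**Figure D3:**
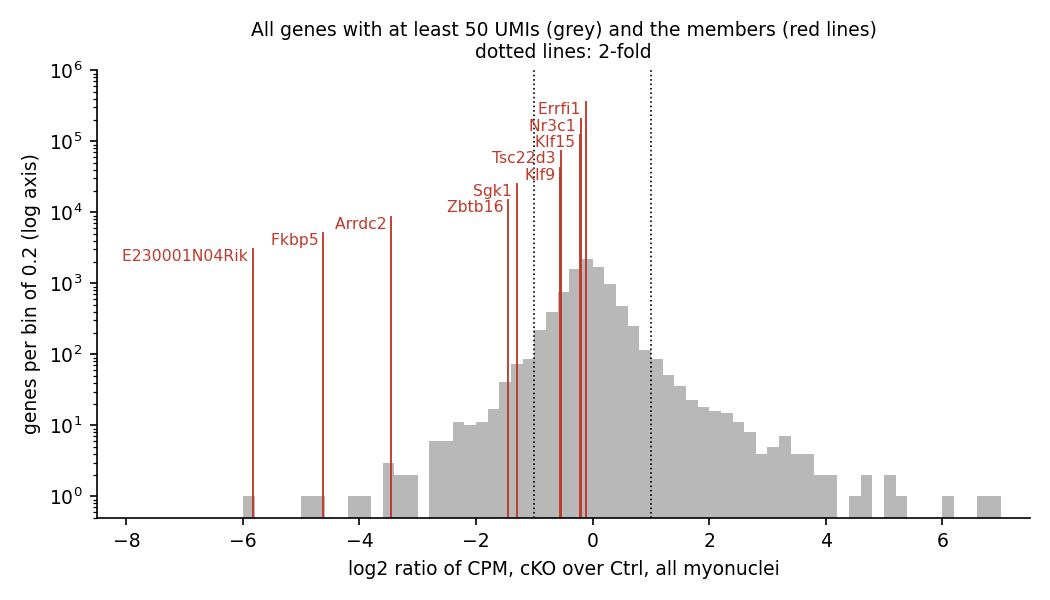
Histogram of the log2 ratio of cKO over Ctrl CPM in all myonuclei for the genes with at least 50 UMIs (grey, log axis), with the 10 members as red lines and the 2-fold limits dotted. Sln, which had no Ctrl UMI, is not drawn, and 3 of the members (E230001N04Rik, Fkbp5 and Arrdc2) lie below −3.

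By fibre class, Fkbp5 in Ctrl was at 577 CPM in Myh4-dominant, 275 in Myh1-dominant, 178 in Myh7-dominant and 159 in Myh2-dominant nuclei. The level in Myh4-dominant nuclei was 3.64-fold that in Myh2-dominant nuclei (log2 1.86, 1.50 to 2.25). The Myh7-dominant value came from 7 UMIs, and its order against its neighbours could not be told. In cKO the levels were 27.8 CPM in Myh4-dominant, 12.5 in Myh1-dominant, 11.5 in Myh7-dominant and 4.41 in Myh2-dominant nuclei, from 82, 11, 7 and 3 UMIs. Every one of the 4 classes was thus lower in cKO, by 20.8-fold in Myh4-dominant (16.7 to 26.2), 22.0-fold in Myh1-dominant (12.0 to 44.7), 35.9-fold in Myh2-dominant (11.7 to 179) and 15.5-fold in Myh7-dominant nuclei (4.63 to 51.7). The Myh2- and Myh7-dominant values rest on 3 and 7 cKO UMIs and moved with the processing. The log2 ratio in Myh2-dominant nuclei, −5.17, was −4.18 with doublets kept and −6.11 by clusters, and that in Myh7-dominant nuclei, −3.95, was −2.38 with a main myosin at 80%. In Myh1-dominant nuclei it was −4.46, and −5.41 by clusters. The intervals overlap, and the classes could not be ordered by the size of the Fkbp5 difference.

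Arrdc2 and Sgk1 had the same order from Myh4- to Myh1- to Myh2-dominant nuclei. Arrdc2 in Ctrl was at 473, 250 and 91.0 CPM in these classes, and in cKO at 60.7, 18.2 and 1.47 CPM, the last from 1 UMI. The Myh4-dominant level of Arrdc2 was 5.20-fold the Myh2-dominant level in Ctrl. Sgk1 in Ctrl was at 214, 95.4 and 31.2 CPM, and in cKO at 126, 43.2 and 8.82 CPM. Its Myh4-dominant level was 6.87-fold the Myh2-dominant level in Ctrl (log2 2.78, 1.97 to 3.74) and 14.3-fold in cKO (log2 3.84, 2.71 to 5.30). The cKO value rests on 6 UMIs in Myh2-dominant nuclei, and the intervals overlap. Within Myh4-dominant nuclei Sgk1 was 1.696-fold lower in cKO (1.51 to 1.91), less than the 2.46-fold over all myonuclei.

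**Figure D4:**
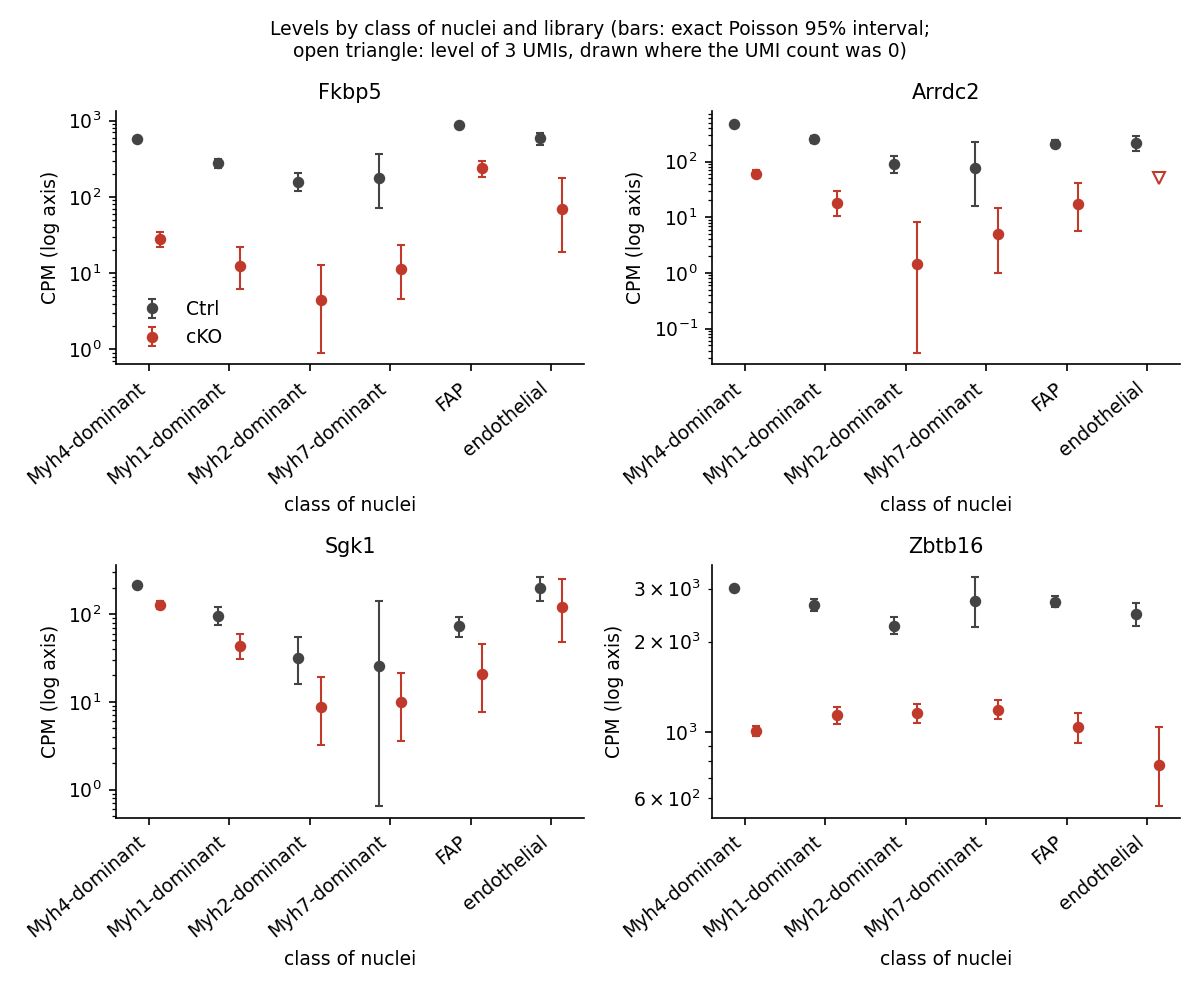
CPM of Fkbp5, Arrdc2, Sgk1 and Zbtb16 by class of nuclei in the Ctrl library (grey) and the cKO library (red) on log axes, with exact Poisson 95% intervals and an open triangle at the level of 3 UMIs where no UMI was found. Fkbp5, Arrdc2 and Sgk1 step down from Myh4- to Myh2-dominant nuclei in both libraries, whereas Zbtb16 stays between 2262 and 3007 CPM in the Ctrl fibre classes.

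Zbtb16 varied little between fibre classes. In Ctrl it was at 3007 CPM in Myh4-dominant, 2721 in Myh7-dominant, 2651 in Myh1-dominant and 2262 in Myh2-dominant nuclei. In cKO it was at 1008, 1186, 1135 and 1153 CPM in the same classes. The Myh4-dominant level was 1.33-fold the Myh2-dominant level in Ctrl and 0.874-fold in cKO, so the order of these classes was turned, with intervals away from 1 in both libraries. E230001N04Rik in Ctrl was at 39.4 CPM in Myh4-dominant and 15.5 in Myh1-dominant nuclei. In cKO it had 3 UMIs in Myh4-dominant nuclei.

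Klf9 in Ctrl lay between 135 and 171 CPM in the 4 classes, and no neighbouring classes could be ordered. Tsc22d3 in Ctrl was at 172 CPM in Myh4-dominant, 161 in Myh1-dominant and 101 in Myh2-dominant nuclei, and the levels in Myh4- and Myh1-dominant nuclei could not be ordered. Klf15 had its highest Ctrl level in Myh2-dominant nuclei, at 44.2 CPM from 17 UMIs, which could not be told from the 26.6 CPM in Myh4-dominant nuclei. Nr3c1 in Myh4-dominant nuclei had 313 CPM in Ctrl nuclei and 308 in cKO nuclei, with a log2 ratio of −0.02 (−0.14 to 0.10). The receptor transcript thus differed by less than counting error in that class, but it was lower in cKO in Myh1-dominant nuclei, by a log2 ratio of −0.47 (−0.77 to −0.18). That direction turned, to a log2 ratio of 0.09, when the fibre class was read after thinning to 500 UMIs. In mixed nuclei, with at least 3 myosin UMIs and no dominant myosin, the Nr3c1 ratio was −0.47 (−0.84 to −0.11), and in undetermined nuclei, with fewer myosin UMIs, it was −0.01 (−0.27 to 0.25). Errfi1 was at 18.1 CPM in Ctrl and 28.4 in cKO Myh1-dominant nuclei, from 14 and 25 UMIs, and the interval of this log2 ratio, 0.65, ran from −0.35 to 1.71. By clusters the ratio was −0.97, so its direction in Myh1-dominant nuclei was not settled. In Myh4-dominant nuclei Errfi1 was at 21.7 and 13.6 CPM.

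In Myh4-dominant nuclei 4 of 10 members were at least 2-fold lower, against 2.5% of the genes tested there, and in Myh1-dominant nuclei 4 of the 7 members past the UMI minimum, against 2.69%. One of these 4, Sgk1, had a log2 ratio of −1.15 there, and of −0.17 when the fibre class was read after thinning to 500 UMIs, which ends its 2-fold difference. In Myh2-dominant nuclei only Fkbp5 of the 5 members past the minimum was at least 2-fold lower, against 3.34%. Without that minimum 3 members were, the others being Arrdc2 and Sgk1. Arrdc2 was 61.9-fold lower there (10.4 to 2513), from 35 and 1 UMIs, and Sgk1 3.54-fold (1.23 to 11.5), from 12 and 6. The log2 ratio of Zbtb16 in Myh2-dominant nuclei was −0.97 (−1.11 to −0.83), just short of 2-fold. Under other processing it ran from −1.24 to −0.80, so that it was past 2-fold in some settings. Members past the minimum were those with enough UMIs, often through Ctrl alone, so these counts are not a share of all members.

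The libraries were also compared within clusters of nuclei. Among 13 clusters of nuclei, Fkbp5 was lower in cKO in 13, with the interval below 0 in 12, and Zbtb16 was lower in 13, with the interval below 0 in 13. Arrdc2 was lower in 12 clusters, with the interval below 0 in 11, and Sgk1 in 12, with the interval below 0 in 8. Klf9 was lower in 13 but with the interval below 0 in 3. Errfi1 was lower in 10 clusters, Tsc22d3 and E230001N04Rik each in 9, Nr3c1 in 8 and Klf15 in 7. The interval lay below 0 in 1, 6, 2, 1 and 0 of them. Clusters without a UMI in cKO have no ratio and are left out of these interval counts. E230001N04Rik had 51 UMIs in Ctrl and 0 in cKO in cluster 3, at least 9.69-fold lower against a floor of 3 UMIs. Nr3c1 had an interval above 0 in 2 clusters. The log2 ratio of Fkbp5 ran from −6.11 to −1.02 over clusters, and that of Zbtb16 only from −1.87 to −0.93. In cluster 8, led by Plekhh1, Aox2 and Tmem100, Zbtb16 was at 903 CPM in Ctrl and 294 in cKO while Sgk1 was at 373 and 215 CPM.

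Outside the fibres, fibro-adipogenic progenitors (FAPs), the connective tissue progenitors of muscle, were taken as nuclei with at least 3 UMIs from at least 2 of 10 marker genes and at least 2 times as many as of any other outside list. There were 339 such nuclei in Ctrl and 139 in cKO, and all 10 markers had UMIs in both. Endothelial-marker nuclei, from 12 markers that all had UMIs in both libraries, numbered 92 and 39. The HSA promoter that drives Cre is a promoter of skeletal muscle fibres. Free RNA from fibres was measured in these nuclei by 8 fibre genes. Their summed level in FAP-marker nuclei was 51.1% of the myonuclear level in Ctrl and 49.7% in cKO, and in endothelial-marker nuclei 67.4% and 63.6%. A member at or below this share of its myonuclear level is read as background.

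Fkbp5 in FAP-marker nuclei was at 865 CPM in Ctrl (803 to 932, from 704 UMIs) and 236 CPM in cKO (183 to 299, from 68 UMIs), 3.66-fold lower (2.85 to 4.77). Against all myonuclei of the same library it was 1.71-fold higher in Ctrl (1.57 to 1.85) and 11.5-fold higher in cKO (8.44 to 15.4). Both ratios lie well above the share of free fibre RNA. The lower Fkbp5 level in cKO was therefore present in FAP-marker nuclei too, with a smaller fold than in myonuclei. The intervals of both folds do not overlap. Free fibre RNA was not taken off these levels, and its part in the 3.66-fold value was not tested. The 3.66-fold value is therefore not taken as that of FAP nuclei alone. Fkbp5 UMIs were found in 69.6% of Ctrl and 27.3% of cKO FAP-marker nuclei, and at 500 UMIs in 39.2% and 13.7%.

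Zbtb16 in FAP-marker nuclei was at 2716 CPM in Ctrl and 1035 in cKO, 2.62-fold lower (2.32 to 2.97). These levels were 0.943 (0.903 to 0.986) and 0.978 (0.868 to 1.10) of the myonuclear ones, above free fibre RNA at 51.1% and 49.7%, and the part of free RNA in this fold was not tested. Errfi1 had, in Ctrl, the highest level of the members relative to myonuclei, at 188 CPM in Ctrl and 79.9 in cKO. This was 8.47-fold (6.76 to 10.6) its myonuclear level in Ctrl and 3.90-fold (2.39 to 6.10) in cKO, and the log2 ratio of cKO over Ctrl was −1.24 (−1.94 to −0.60), against −0.12 (−0.45 to 0.22) in all myonuclei. Klf9 was at 210 and 149 CPM, a log2 ratio of −0.49 (−1.01 to −0.003). Nr3c1 was at 295 and 365 CPM, a log2 ratio of 0.31 (−0.04 to 0.64).

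Arrdc2 in FAP-marker nuclei was at 209 CPM in Ctrl and 17.4 in cKO, or 0.510 and 0.465 of its myonuclear level, which is the level of free fibre RNA. Sgk1, at 72.5 and 20.8 CPM, was at 0.404 and 0.286 of its myonuclear level. E230001N04Rik had 13 UMIs in Ctrl and 0 in cKO, at least 1.53-fold lower against a floor of 3 UMIs in the cKO sum, and its Ctrl level was 0.475 of that in myonuclei. These 3 are read as background in FAP-marker nuclei, and their ratios there are not taken as FAP values. Of the 8 members past the UMI minimum in FAP-marker nuclei 5 were at least 2-fold lower, against 4.77% of genes tested. These 5 were Fkbp5, Zbtb16, Errfi1, Arrdc2 and Sgk1, of which Arrdc2 and Sgk1 are at background. Under other processing the log2 ratio of Errfi1 in these nuclei ran from −1.34 to −0.97, so its 2-fold difference did not always hold.

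**Figure D5:**
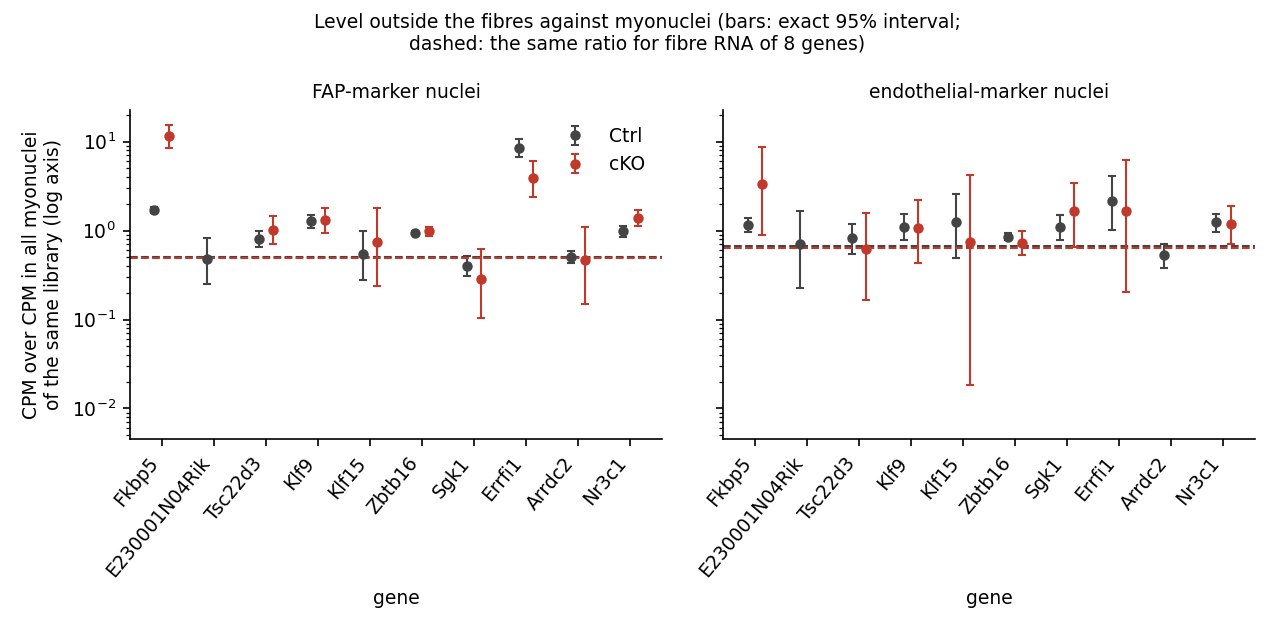
Level of each member in FAP-marker nuclei (left) and endothelial-marker nuclei (right) divided by its level in all myonuclei of the same library, on a log axis, for Ctrl (grey) and cKO (red) with exact 95% intervals, and points left out where no UMI was found. The dashed lines give the same ratio for 8 fibre genes, and in FAP-marker nuclei Fkbp5 (1.71 and 11.5) and Errfi1 (8.47 and 3.90) lie far above them.

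In endothelial-marker nuclei Fkbp5 was at 584 CPM in Ctrl (122 UMIs) and 68.8 CPM in cKO (4 UMIs), 8.48-fold lower (3.23 to 31.6). The log2 ratio of this Fkbp5 difference, −3.08, ran from −4.60 with at least 1000 UMIs per nucleus to −2.32 when CPM was taken per nucleus and averaged. The Ctrl level of Fkbp5 was 1.15 of the myonuclear one (0.953 to 1.38) and the cKO level 3.34 (0.897 to 8.74), beside free fibre RNA at 67.4% and 63.6%. The 8.48-fold value is therefore not taken as that of endothelial nuclei alone. Zbtb16 was at 2465 and 775 CPM, 3.18-fold lower (2.34 to 4.42), and its log2 ratio of −1.67 was −2.38 with CPM averaged in that way. Its Ctrl level was 0.856 of the myonuclear one (0.783 to 0.934), above that share of free fibre RNA. Its cKO level was 0.732 (0.534 to 0.981), which could not be told from it. Sgk1 was at 196 and 120 CPM, from 41 and 7 UMIs, and its interval spans equal levels. Arrdc2 had 45 UMIs in Ctrl and 0 in cKO, at least 4.17-fold lower against the same floor, and its Ctrl level was 0.526 of the myonuclear one, at background. Of the 3 members past the minimum 2 were at least 2-fold lower, against 8.1% of genes. Counted over every member with UMIs in both libraries, without that minimum, 2 members were at least 2-fold lower, and 4 with a gate of 2 or of 5 UMIs or with CPM averaged per nucleus. In the 21 Ctrl and 17 cKO immune-marker nuclei Fkbp5 had 37 and 3 UMIs, or 709 and 105 CPM. Free fibre RNA was at 59.4% and 44.3% of the myonuclear level in these nuclei, and no immune level of Fkbp5 is read from so few UMIs. FAP-marker nuclei made up 9.61% of Ctrl and 3.87% of cKO nuclei, and the part of this difference in the library-wide levels was not tested.

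Fkbp5 was also described from nucleus to nucleus. In 1889 Myh4-dominant Ctrl nuclei thinned to 1000 UMIs, the variance of the Fkbp5 count was 1.28 times its mean, 67 nuclei held 3 or more UMIs, and the highest held 6. The same ratio was 1.47 for Zbtb16, 1.15 for Sgk1, 1.13 for Arrdc2 and 1.00 for Klf9, where 1 is the value of counting error alone and the ratio also grows with the mean. Ctrl myonuclei with 3 or more Fkbp5 UMIs at that depth (85 nuclei) were set beside those with none (1838 nuclei). Zbtb16 was 1.13-fold (0.992 to 1.27), Sgk1 1.34-fold (0.805 to 2.10), Nr3c1 1.40-fold (0.9505 to 1.99) and Arrdc2 1.04-fold (0.719 to 1.46) as high. E230001N04Rik was 2.71-fold as high (0.949 to 6.35), from 6 UMIs. These 5 intervals span 1. Nuclei with 2 Fkbp5 UMIs (242 nuclei) held 1.55-fold the Tsc22d3 (1.14 to 2.08) and 1.59-fold the Sgk1 (1.21 to 2.07) of nuclei with none. Nuclei with 1 Fkbp5 UMI (734 nuclei) held 1.72-fold the E230001N04Rik (1.07 to 2.74) and 1.20-fold the Nr3c1 (1.02 to 1.40). Of 26 such ratios over the 9 other members, these 4 had an interval above 1 and 22 spanned 1. For Tsc22d3 the nuclei with 3 or more Fkbp5 UMIs, at 0.737-fold (0.333 to 1.42), did not continue the higher value. These bins mix fibre classes, whose Fkbp5 levels differ. Within Myh4-dominant Ctrl nuclei, a comparison added after the pooled ratios were seen, 2 of 25 ratios had an interval above 1, 2 below 1 and 21 spanned 1. Tsc22d3 was still 1.55-fold with 2 Fkbp5 UMIs (1.09 to 2.17), while Sgk1 was 1.24-fold (0.909 to 1.67). With 1 Fkbp5 UMI, E230001N04Rik was 1.34-fold (0.780 to 2.27), Nr3c1 1.196-fold (0.989 to 1.44) and Sgk1 0.690-fold (0.532 to 0.889). The other interval below 1 was that of Zbtb16 with 1 Fkbp5 UMI, at 0.938-fold (0.882 to 0.997), and the other above 1 that of Nr3c1 with 3 or more, at 1.58-fold (1.05 to 2.30). The pooled excess of Sgk1 and of E230001N04Rik was thus not told from 1 within the class.

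Over the 16 sums of 2 libraries and 8 classes, the genes outside the members with the pattern most like Fkbp5 were Camk1d (Pearson r = 0.91), Erdr1 (0.90), Fnbp4 (0.89), Sik3 (0.89) and Zmiz1 (0.89), among 7452 genes on the log2(CPM + 1) scale. These points share libraries, depth and free RNA, and r is a description that takes no account of the size of a difference. In all myonuclei these 5 genes were 1.89-, 1.89-, 1.46-, 1.28- and 2.15-fold lower in cKO, against 24.6-fold for Fkbp5. E230001N04Rik, with 4 UMIs in cKO myonuclei, was not compared, since at least 50 UMIs were required in each library. Erdr1 is a multi-copy gene, and its count is uncertain. Of the members, Klf9 stood ninth (0.86), Zbtb16 at rank 29, Arrdc2 at rank 47 and Klf15 at rank 5181. With Spearman's rho, 3 of the 5 leading genes were shared, Klf9 stood at rank 5 and Arrdc2 at rank 47, and Zbtb16 moved to rank 517 (0.63).

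Wider lists of the pathway were described in all myonuclei by their counts. The lists were chosen with earlier results of these data known, so the counts are descriptions and carry no test. Of 19 muscle wasting and metabolic targets, 18 passed the minimum, and 15 of these were lower and 3 higher in cKO, with 8 at least 2-fold lower and 1 at least 2-fold higher. Over all 9200 genes, 58.6% were lower, 2.97% at least 2-fold lower and 3.29% at least 2-fold higher. The median log2 ratio of the 18 was −0.86. Hif3a, a hypoxia-inducible factor subunit, had 44 and 8 UMIs (log2 −2.28). Pdk4, the kinase that blocks pyruvate dehydrogenase, was at 641 CPM in Ctrl and 140 in cKO (log2 −2.19). Ucp3, a mitochondrial uncoupling protein, was at 240 and 60.2 CPM (log2 −2.00). Fbxo32, the atrophy ubiquitin ligase atrogin-1, was at 1334 and 497 CPM (log2 −1.43). Irs2, an adaptor of the insulin receptor, was higher in cKO, at 50.2 CPM in Ctrl and 139 in cKO (log2 1.47).

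Of 15 acute and feedback targets listed, 14 were in the files used here and 9 passed the minimum. Of these 9, 7 were lower and 2 higher, against 58.6% of all genes lower, and 2 were at least 2-fold lower, against 2.97%. The interval lay below 0 for 6, against 23.8% of all genes, and above 0 for 2, against 15.2%, and the median log2 ratio was −0.34. Nfkbia, the NF-κB inhibitor, had 89 UMIs in Ctrl and 31 in cKO (log2 −1.35). Tgm2, a transglutaminase, had 117 and 49 UMIs (log2 −1.08). Of the receptor machinery, the chaperones, activating enzymes and cofactors of the receptor, 13 of 14 passed the minimum. Of these 13, 5 were lower and 8 higher, against 58.6% of all genes lower, and the median log2 ratio was 0.10. The interval lay below 0 for 4 and above 0 for 6, and 1 was at least 2-fold lower and 2 at least 2-fold higher. Over all genes, 23.8% had the interval below 0, 15.2% above 0, 2.97% were at least 2-fold lower and 3.29% at least 2-fold higher. Hsp90aa1, the inducible Hsp90, was at 17.3 CPM in Ctrl and 38.9 in cKO (log2 1.16). Hspa8, a constitutive Hsp70 chaperone, was at 33.0 and 66.6 CPM (log2 1.01). H6pd, which supplies the cofactor of the enzyme that reactivates glucocorticoids, was at 52.3 and 22.5 CPM (log2 −1.21). In FAP-marker nuclei, 12 of 13 wasting and metabolic targets past the minimum were lower, 1 of 4 acute targets and 5 of 9 of the machinery, against 54.3% of all genes past the minimum in that class. Of the 13 wasting and metabolic targets there, 4 were at or below the share of free fibre RNA in both libraries and are read as background. These were Fbxo32, Trim63, Pdk4 and Ucp3, at 0.478, 0.488, 0.408 and 0.502 of their myonuclear levels in Ctrl. Glul was so in cKO only. Of the other 8 targets, 7 were lower and 1, the growth factor gene Igf1, was at least 2-fold lower (log2 −1.63). Trim63, Glul and Igf1 are named here after their values were seen.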

How the data were processed

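Single-nucleus RNA-Seq counts were used for 1 Ctrl and 1 cKO library. The authors deposited raw UMI counts per gene and barcode, made with Cell Ranger 3.1.0 on GRCm38 (mm10) according to their processing notes. The annotation release, the handling of intronic reads and the use of strand are not given in the sources used here. Nuclei with under 100 genes, under 500 UMIs or over 10% mitochondrial UMIs were removed. Scrublet (scanpy 1.11.5) marked 0 doublets, so it had not worked, and the 8% of nuclei with the highest score were removed per library (307 and 313).

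Classes came from marker gates and myosin UMIs, since the deposited counts carry no annotation. UMIs were summed per class and library and given as CPM. No test was run, since each group had 1 library. Intervals are exact Poisson (CPM), Clopper-Pearson (shares) and exact conditional (ratios), at 95%. The Poisson and conditional ones were checked on counts simulated with Poisson error alone, which cannot show how they cover the spread between nuclei. Ratios were computed wherever both libraries had UMIs and 1 had more than 3, so some rest on few UMIs, and a count of 0 against more was set to a floor of 3 UMIs. Named genes were the 10 members, of each wider list up to 4 genes furthest to each side past 2-fold, and the 5 genes most like Fkbp5. Members and lists were chosen with earlier results of these data known. Clusters (Seurat 5.3.0, sctransform 0.4.2, resolution 0.3), other scalings, gates, depths and fibre mixtures were alternatives. Python 3.11.15 and scipy 1.17.1 were used. Coordinates came from GENCODE M21 (27645 of 27998 identifiers matched) and promoter windows from RefSeq.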

Additional observations from a re-analysis of the deposited data

Results flagged for a closer look

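Nr3c1 was higher in cKO in some clusters of nuclei and lower in another. Its log2 ratio of cKO over Ctrl was 0.46 in cluster 7, led by Tigd4, Prom1 and Kcnh7, and 1.45 in cluster 11, led by Gm26834, Calcr and Hs6st3, while it was −3.33 in cluster 12, led by Tmem45b, Pck1 and Cidec. The intervals of all of these lay away from 0, but cluster 12 held 7 Ctrl and 9 cKO nuclei and cluster 11 held 21 and 13. The difference between clusters was not tested, since each group had 1 library.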

How the results depend on the processing

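No paired analysis was possible because each group had 1 library and no test was made. Of the member ratios recomputed under the alternatives, 552 stayed within their counting interval and 26 left it. The sign differed in 30, belonging to 13 member and class pairs, and in 29 of these the interval of the reported ratio already spanned 0. In the other, Nr3c1 in Myh1-dominant nuclei, the log2 ratio was 0.0925 when the fibre class was read after thinning to 500 UMIs, and the cause was not tested. Over members with UMIs in both libraries, with no minimum, those at least 2-fold lower in endothelial-marker nuclei numbered 4 when CPM was averaged per nucleus, 4 with a gate of 2 UMIs and 4 with a gate of 5 UMIs, against 2. With at least 200 UMIs per gene, 4 of 5 acute and feedback targets were lower, against 7 of 9, a minimum that leaves fewer genes tested. Depth limits the cKO values of E230001N04Rik in every class and all Myh7-dominant values in Ctrl. Pooled libraries leave the spread between animals unknown.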
